A study of Rattus norvegicus with 9 samples.

Results

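The 8 genes described here, Dusp1, Dusp2, Dusp4, Dusp5, Dusp6, Dusp7, Dusp10 and Dusp16, encode dual-specificity phosphatases that switch off mitogen-activated protein (MAP) kinases. They were picked by symbol, 8 of the 41801 genes listed for each library, and all 8 were detected. The measurements came from single-cell RNA sequencing of tissue from a circular osteotomy of the tibia in young male Sprague-Dawley rats, which, per the study's methods for its wound model, also carried a skin wound on the dorsal foot. In TO rats a plug of cortical bone was cut and nothing further was done at the bone, and in TOE rats the osteotomy site also received radial extracorporeal shock waves through the skin on days 2 and 4 after injury. The 8 libraries, 1 per condition, were TO 2d 0h, TO 2d 4h, TO 4d 4h, TO 4d 24h, TOE 2d 4h, TOE 2d 24h, TOE 4d 4h and TOE 4d 24h, where the first number is the day after injury and the second, per the study, the hour of collection counted from the shock wave of that day in TOE, with TO collected under the same names and no shock wave. The TOE libraries of day 2 were thus collected before the day 4 shock wave, and those of day 4 after both, so that within TOE the day and the number of treatments cannot be told apart. All animals had the osteotomy, so no library shows uninjured bone, and how many rats went into a library is not known here. TO 2d 24h was not analysed here.

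MAP kinases carry signals from growth factors, cytokines and mechanical or chemical stress, and they are active only while a threonine and a tyrosine of their activation loop are both phosphorylated. Dual-specificity phosphatases remove both phosphates. Many of them are transcribed in response to the very kinases they switch off, which makes a negative feedback loop. Dusp1, Dusp2, Dusp4 and Dusp5 are mostly nuclear and are induced early by stimuli, and of these Dusp5 acts on ERK. Dusp6 and Dusp7 act on ERK in the cytoplasm, whereas Dusp10 and Dusp16 act mainly on JNK and p38. In bone marrow these enzymes are known for limiting the activation of leukocytes, and Dusp2 was first described in activated lymphocytes.

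The promoters of Dusp5, Dusp2 and Dusp1 are shown because the results below turn on these genes, with matches to short motifs, among them those of transcription factors that act below MAP kinases and cyclic AMP. Of the 8 members, 7 matched a RefSeq promoter (rat assembly GRCr8), and Dusp4 had no entry. Each sequence is the 250 bases before the transcript's start on the plus strand, chr1:262543524-262543773 for Dusp5, chr3:135009386-135009635 for Dusp2 and chr10:17184603-17184852 for Dusp1. The processing notes name the rat build mRatBN7.2, so these positions belong to the RefSeq build alone. Capitals mark every match, on either strand, to 5 motifs: the cyclic AMP response element TGACGTCA, its half-site TGACG, the E-box CACGTG, the AP-1 site TGANTCA and the CArG box, the site of serum response factor.
Dusp5: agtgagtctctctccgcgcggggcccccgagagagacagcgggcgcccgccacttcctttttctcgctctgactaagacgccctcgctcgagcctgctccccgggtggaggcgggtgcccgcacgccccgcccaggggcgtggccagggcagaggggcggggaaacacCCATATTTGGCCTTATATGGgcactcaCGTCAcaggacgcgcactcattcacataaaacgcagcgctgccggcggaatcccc
Dusp2: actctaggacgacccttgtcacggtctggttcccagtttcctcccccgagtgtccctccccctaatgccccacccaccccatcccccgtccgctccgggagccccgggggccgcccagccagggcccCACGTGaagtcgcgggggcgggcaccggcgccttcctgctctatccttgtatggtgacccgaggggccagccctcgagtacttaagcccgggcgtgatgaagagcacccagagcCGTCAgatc
Dusp1: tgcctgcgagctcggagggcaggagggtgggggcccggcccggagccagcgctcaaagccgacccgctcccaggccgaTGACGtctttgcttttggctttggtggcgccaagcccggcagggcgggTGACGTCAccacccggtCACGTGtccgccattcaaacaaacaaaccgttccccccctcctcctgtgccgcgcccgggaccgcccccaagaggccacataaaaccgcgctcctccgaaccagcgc

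In Dusp5 a pair of CArG boxes lay end to end, from base -82 to -73 and from -72 to -63 before the start, with a half-site from -55 to -51. A CArG box was present in 1.5% of the 27457 promoters of this length, and of the members only Dusp5 held one in this window. Dusp1 held the full cyclic AMP element from -124 to -117, found in 1.7% of promoters, and an E-box from -107 to -102. Within this element the half-site also reads on both strands, so the matches overlap, and Dusp1 held 1 further half-site from -172 to -168. Dusp2 held an E-box from -123 to -118 and a half-site from -9 to -5, and Dusp16 a half-site from -70 to -66. The half-site was present in 19% of promoters and the E-box in 5.79%, while the AP-1 site, in 6.36% of promoters, was in none of the 7 members. A match is a run of letters and was not tested as a binding site.

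The files listed 12451 to 17187 barcodes per library, and 12007 to 16409 cells per library were kept, 111646 in all, with a median of 4444 to 5567 UMIs per cell. Cells fell into 32 clusters, of which 11 classes were named from marker genes. The B-lineage-like class was the largest with 58014 cells, followed by neutrophil-like (12863), monocyte-like (12120), erythroid-like (7013), granulocyte-monocyte progenitor-like (3790), plasmacytoid dendritic-cell-like (2089), macrophage-like (1993) and mesenchymal-like (1299) cells. Smaller classes were endothelial-like (381), mast-cell/basophil-like (1024) and T/NK-cell-like (1052), while 10008 cells stayed unnamed. Cells labelled as osteotomy tissue were therefore mostly of blood-forming lineages. Pairs of libraries shared 40 to 110 barcodes, at most 0.783% of a library. TOE 4d 24h stood apart from the other libraries. Cluster 7 held 69.1% of its B-lineage-like cells, cluster 20 held 94.6% of its monocyte-like cells, and its endothelial-like, macrophage-like and T/NK-cell-like classes had 17, 25 and 29 cells. These 3 classes were therefore not tested, and results are also given without TOE 4d 24h.

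Each member had its own pattern over the classes of cells, described here by the median over the 8 libraries of its CPM, the usual unit in which the UMIs of a class in a library are scaled to a fixed total, with the lowest and highest library. Levels are compared within a gene across classes, not between genes. Fewer expressing cells and less RNA per cell cannot be told apart in such sums. Of all the steps from a class to the next lower one, over all 8 genes, only the first step of Dusp10 separated the ranges of the 8 libraries. The order of all other neighbouring classes lay within the spread between libraries.

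**Figure D1:**
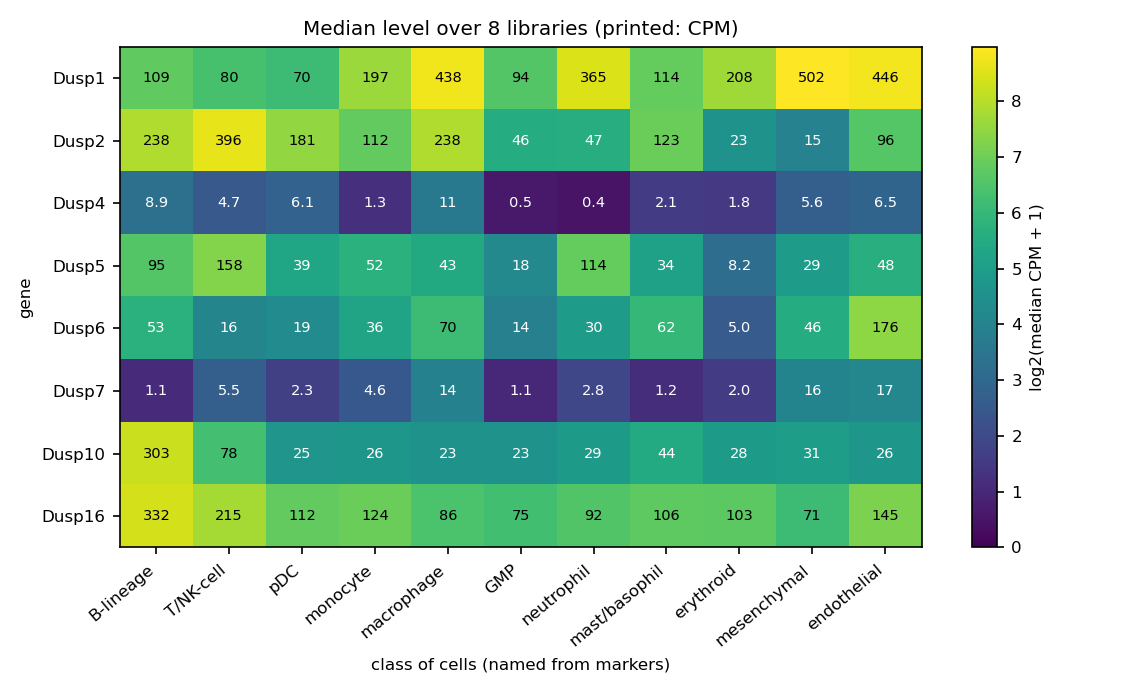
Median CPM over the 8 libraries of each phosphatase gene (rows) in each of the 11 named classes of cells (columns), with the value printed in each cell and the colour on a log2(CPM + 1) scale. GMP stands for granulocyte-monocyte progenitor and pDC for plasmacytoid dendritic cell, and the classes were named from markers. Dusp10 and Dusp16 have their highest medians in the B-lineage-like class (303 and 332 CPM), Dusp2 and Dusp5 in the T/NK-cell-like class (396 and 158 CPM) and Dusp1 in the mesenchymal-like class (502 CPM).

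Dusp1, an early-response phosphatase of all 3 MAP kinase families, was highest in mesenchymal-like cells at 502 CPM (358 to 798). Endothelial-like cells at 446 CPM (106 to 812), macrophage-like cells at 438.5 CPM (346 to 665) and neutrophil-like cells at 365 CPM (172 to 494) came next. Plasmacytoid dendritic-cell-like cells, at 69.5 CPM (49.6 to 142), had the lowest median. By class medians Dusp1 was thus highest in the mesenchymal-like, endothelial-like, macrophage-like and neutrophil-like classes, with overlapping ranges among them. Single clusters departed from this order. Erythroid-like cells stood at 207.8 CPM (140.4 to 539.2) as a class, but their cluster 14 at 479.9 CPM (246.8 to 718.6). Neutrophil-like cluster 12 stood at 117.9 CPM (72.25 to 171.7).

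Dusp2, the phosphatase of activated lymphocytes, was highest in T/NK-cell-like cells at 396 CPM (290 to 1087). B-lineage-like and macrophage-like cells both had a median of 237.9 CPM (116 to 503 and 192 to 399), and plasmacytoid dendritic-cell-like cells followed at 180.6 CPM (73.0 to 377). In mesenchymal-like cells, where Dusp1 was highest, Dusp2 stood at 14.8 CPM (5.90 to 30.2). Dusp4, a nuclear phosphatase related to Dusp1, was low everywhere. Its highest median was 11.4 CPM in macrophage-like cells (listed at 0 in TOE 4d 24h, up to 13.4), and its lowest was 0.393 CPM in neutrophil-like cells. No osteoclast-like class was named at the clustering resolution used here. At a resolution of 2, an osteoclast-like cluster of 423 cells held 31.2 CPM of Dusp4 and a macrophage-like cluster of 1621 cells 2.32 CPM.

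Dusp5, the nuclear ERK phosphatase, was highest in T/NK-cell-like cells at 158 CPM (76.9 to 307), then in neutrophil-like cells at 114 CPM (43.1 to 201) and B-lineage-like cells at 95.05 CPM (60.8 to 165). Its lowest median was 8.23 CPM in erythroid-like cells. Dusp6, its cytoplasmic counterpart for ERK, was highest in endothelial-like cells at 176 CPM (74.7 to 334.5), followed by macrophage-like cells at 69.6 CPM (45.8 to 102). Dusp7, the closest relative of Dusp6 among these genes, was also highest in endothelial-like cells, at 16.6 CPM, with mesenchymal-like cells at 15.5 CPM and macrophage-like cells at 14.5 CPM. In B-lineage-like cells Dusp7 stood between 0.497 and 1.78 CPM.

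The 2 phosphatases of JNK and p38 were both highest in B-lineage-like cells. Dusp10 stood at 303 CPM there (176 to 539), and no library of the next class, T/NK-cell-like at 77.5 CPM, exceeded 103 CPM. Dusp16 stood at 332 CPM in B-lineage-like cells (79.9 to 436) and at 215 CPM in T/NK-cell-like cells (90.2 to 247), with overlapping ranges. Without TOE 4d 24h the lowest B-lineage-like value of Dusp16 was 165 CPM.

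Within the B-lineage-like class the members also differed between clusters. Cluster 23, led by Dntt, which adds nucleotides at antigen receptor joints in early B-cell precursors, had 635 CPM of Dusp2 (400 to 1419) and 59.7 CPM of Dusp10 (36.4 to 93.0). Cluster 3, with Rag1 of receptor recombination among its leading genes, had 526 CPM of Dusp10 (457 to 1273) and 177 CPM of Dusp2 (110 to 347). Dusp2 and Dusp10 thus lay in opposite order in these clusters, with no library of the one in the range of the other. In cluster 13, led by Ms4a1 of mature B cells, Dusp2 stood at 75.6 CPM and Dusp10 at 293 CPM. That level of Dusp2 does not hold for all mature B cells. At a clustering resolution of 2, clusters 4, 7 and 8 of that resolution had 6, 5 and 6 of 7 mature B-cell genes raised. They held 489, 264 and 66.6 CPM of Dusp2 and 486, 464 and 310 CPM of Dusp10. Clusters were formed from the same cells, so these levels are a description.

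Neutrophil-like and monocyte-like clusters differed in the same way. Cluster 26, whose cells had all 7 of 7 mature neutrophil genes raised, held 727 CPM of Dusp1 (324 to 1500) and 218 CPM of Dusp5 (122 to 318.5). Cluster 12, with the secondary granule genes Ngp and Lcn2 in the lead, held 118 CPM of Dusp1 (72.2 to 172) and 46.3 CPM of Dusp5 (20.7 to 82.4). Both phosphatases were thus higher in the more mature cluster in every library. Among monocyte-like cells, cluster 31, led by Adgre4 and Treml4, held 385 CPM of Dusp5 over the 7 libraries with at least 30 of its cells (302 to 484), against 35.3 CPM in cluster 20 (27.1 to 68.6).

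The genes whose levels ran most alike with each member over 83 sums (class and library, at least 30 cells) were found by Pearson's r of log2(CPM + 1) among 14470 genes. They are given as a description without a test, since sums of 1 library share its depth and its handling. Dusp5 ran most like Dync1li1 (r = 0.889), Pnrc1 (0.876) and Cyth1 (0.861). Dusp10 ran most like Irf4 (0.879), a transcription factor of B and plasma cells, Cd79a of the B-cell receptor (0.868) and Klhl24 (0.866). Dusp16 ran most like Relb (0.848), an NF-kappaB subunit, Zfp868 (0.828) and Sidt1 (0.825). Dusp2 was nearest to Gbp5 (0.836), LOC102547088 (0.803) and Lpxn (0.800), and Dusp1 to Sec14l1 (0.786), Rhoc (0.768) and Col15a1 (0.733). Dusp6 was nearest to Myadm (0.816), Lrp10 (0.805) and Midn (0.783). For the scarce members, Dusp4 was nearest to Gem (0.843), Dyrk2 (0.810) and Pmepa1 (0.795), and Dusp7 to Plcd1 (0.836), Fam171b (0.832) and Lats2 (0.818).

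The first comparison asked whether the phosphatases differed between the 4 libraries collected at 4 h and the 4 collected at 0 or 24 h. The arm (TO or TOE) and the day were terms of the same edgeR quasi-likelihood fit, which left 4 residual degrees of freedom. There was 1 library per condition, so libraries of other arms and days stood in for replicates and the p-values measure the spread between them. Of 64 combinations of member and class, 60 were tested, since Dusp4 in 3 classes and Dusp7 in 1 had too few UMIs. By hour 33 of the 60 were higher and 27 lower at 4 h, and 2 were called at an adjusted p (Benjamini-Hochberg, over all genes of the class) under 0.05. These were Dusp5 in monocyte-like cells, which rose, and Dusp2 in plasmacytoid dendritic-cell-like cells, which fell. A further 14 combinations, 16 in all, had an unadjusted p under 0.05. Such a p was common among all genes too, with 6473 of 18391 in B-lineage-like and 2702 of 13550 in erythroid-like cells. The share of all genes with such a p was not averaged over the 60 combinations, so the 16 have no matching background.

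The share of all genes called by hour was 19.3% in the B-lineage-like class, 0.177% in erythroid-like, 4.68% in granulocyte-monocyte progenitor-like, 5.51% in mast-cell/basophil-like, 0.12% in mesenchymal-like, 11.1% in monocyte-like, 7.83% in neutrophil-like and 3.79% in plasmacytoid dendritic-cell-like cells. Averaged over the 60 combinations this share was 6.6%, so the members' 2 calls, 1 in each of 2 classes, were no more than the background. In the B-lineage-like class, where the share of all genes was highest, 0 of 8 members were called by edgeR (4 had an unadjusted p under 0.05, and DESeq2 called Dusp5 and Dusp7). By DESeq2, 8 of the 60 were called, and 7 of these rose. DESeq2 also called more of all genes by hour, 25.5% in B-lineage-like and 5.83% in erythroid-like cells, so the edgeR share is not its background. Its own share averaged over the 60 combinations was not made.

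Dusp5 in monocyte-like cells stood at 74.2 CPM in TO 2d 4h, 85.4 in TO 4d 4h, 56.6 in TOE 2d 4h and 71.6 in TOE 4d 4h. At the other hours it stood at 40.1 CPM in TO 2d 0h, 47.0 in TO 4d 24h, 27.9 in TOE 2d 24h and 28.4 in TOE 4d 24h. All 4 libraries of the 4 h collection were above all others. The log2 fold change was 1.03 (SE 0.14, edgeR adjusted p = 0.0094). It was 0.91 (adjusted p = 0.0023) without TOE 4d 24h, and the call held in every edgeR and DESeq2 fit that was tried. An exact permutation test of the 8 libraries gave p = 0.0286, the smallest it can give, which did not pass after adjustment over 64 combinations (adjusted p = 0.229). Other cell markers also moved with the hour in this class. The summed level of the macrophage list, of which 11 of 12 genes were detected and Marco was at 0, was 77.6 to 233 CPM at 4 h and 58.2 to 74.2 CPM at the other hours. The conventional dendritic-cell list (8 of 8 detected) was at 73.1 to 97.5 CPM against 36.1 to 60.9 CPM, and the mesenchymal list (13 of 13) at 90.0 to 220 CPM against 327 to 831.5 CPM. Their part in the result was not tested.

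Monocyte-like cells lay in different clusters at different hours, with cluster 18 holding 47.4 to 70.3% of them at 4 h and at most 3.98% at the other hours, when cluster 19 held up to 77.1%. Inside cluster 20, present in all 8 libraries, Dusp5 was at 38.5 to 68.6 CPM at 4 h and at 27.1 to 32.2 CPM at the other hours. Inside cluster 18 it was at 52.0 to 58.5 CPM at 4 h and at 34.4 to 44.0 CPM in the 3 other libraries with at least 30 cells. The ranges were also apart within clusters 18 and 20. In cluster 31 they overlapped, at 356.5 to 483.9 CPM at 4 h and 302.3 to 385.3 CPM in 3 other libraries, and cluster 19 had at least 30 cells in no 4 h library. The share of all genes whose hours were apart inside a single cluster was not counted, for these clusters or for those of other classes below.

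In the other 7 tested classes Dusp5 had a positive log2 fold change at 4 h, but none passed the adjusted threshold in the edgeR fit with arm, day and hour described above. Alternatives called several of them, but their shares of all genes called differed too. In erythroid-like cells this share was 5.83% by DESeq2 and 1.08% by edgeR with no filter on low counts, against 0.177%. In B-lineage-like cells it was 25.5% by DESeq2, 18.6% at a clustering resolution of 0.5 and 14.6% without TOE 2d 24h. With hour as the single term, 1152 genes were called in granulocyte-monocyte progenitor-like cells, against 614. The other calls below stand without such a share and are not set against a background. By DESeq2 5 of the 7 passed, with adjusted p = 0.037 in B-lineage-like, 0.00185 in erythroid-like, 0.0235 in granulocyte-monocyte progenitor-like, 0.0222 in neutrophil-like and 0.0376 in plasmacytoid dendritic-cell-like cells. By edgeR with no filter on low counts it passed in erythroid-like (adjusted p = 0.0126), granulocyte-monocyte progenitor-like (0.029), neutrophil-like (0.022) and plasmacytoid dendritic-cell-like cells (0.047), with hour as the single term in granulocyte-monocyte progenitor-like cells (0.026), and at a clustering resolution of 0.5 in B-lineage-like cells (0.028). Some also passed by edgeR when 1 library was left out. Without TOE 2d 24h Dusp5 rose on the log2 scale by 0.94 in B-lineage-like (edgeR adjusted p = 0.021), 1.28 in neutrophil-like (0.035) and 0.96 in granulocyte-monocyte progenitor-like cells (0.046), and without TOE 2d 4h by 0.96 in the last of these (0.046) and by 1.18 in plasmacytoid dendritic-cell-like cells (0.048). In neutrophil-like cells it stood at 201, 170, 123 and 167 CPM in TO 2d 4h, TO 4d 4h, TOE 2d 4h and TOE 4d 4h. The values were 66.2, 104, 87.7 and 43.1 CPM in TO 2d 0h, TO 4d 24h, TOE 2d 24h and TOE 4d 24h. The groups did not overlap there, yet the log2 fold change of 0.94 (SE 0.29) had an edgeR adjusted p of 0.080. Markers moved with the hour here too, with the neutrophil list (12 of 12 detected) at 231500 to 270700 CPM at 4 h and 278200 to 332700 CPM otherwise, the monocyte list (10 of 10) at 11510 to 13940 against 8080 to 10540 CPM, and the mesenchymal list (13 of 13) at 151.8 to 317.5 against 424.9 to 1110 CPM. Their part in the result was not tested. Neutrophil-like cells of TOE 4d 24h lay mostly in cluster 21 (51.2%), and only 11.4% were in cluster 26. Inside cluster 26 alone, Dusp5 stood at 310, 300.2, 318.5 and 317 CPM in the 4 h libraries and at 132, 136, 122 and 126 CPM in the others, so that all 8 libraries fell into narrow ranges by hour. Inside the other neutrophil-like clusters the hours overlapped, with Dusp5 at 45.95 to 82.43 CPM at 4 h and 20.73 to 46.73 CPM otherwise in cluster 12, and at 81.96 to 142.6 against 38.37 to 95.18 CPM in cluster 21. In granulocyte-monocyte progenitor-like cells, which precede neutrophils and monocytes, Dusp5 was at 20.4 to 33.3 CPM against 12.04 to 14.7 CPM (log2 fold change 0.78, edgeR adjusted p = 0.060). In this class the monocyte list (10 of 10 genes detected) summed to 6645 to 10010 CPM at 4 h and 3813 to 4947 CPM otherwise, and the mesenchymal list (13 of 13) to 111.1 to 249.9 against 305.7 to 898.2 CPM, and their part in the result was not tested.

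In the lymphoid classes Dusp5 had a log2 fold change of 0.69 in B-lineage-like cells (edgeR adjusted p = 0.072), with 152, 152, 91.2 and 165 CPM at 4 h and 75.5, 97.5, 92.6 and 60.8 CPM at the other hours. Here TOE 2d 4h lay among the libraries of the other hours. The mesenchymal list (13 of 13 genes detected) summed to 322.8 to 490.6 CPM at 4 h and 693.7 to 1461 CPM otherwise in this class, and the osteoclast list (7 of 7) to 108 to 130.5 against 162.9 to 197.1 CPM, and their part in the result was not tested. The clusters of this class also changed with the hour, since cluster 3 held 21.5 to 44.9% of its cells at 4 h and at most 2.96% otherwise, while cluster 0 held up to 66.8% at the other hours and at most 1.78% at 4 h. Inside cluster 3 Dusp5 was at 166.6 to 206.7 CPM at 4 h and at 88.3 to 117.5 CPM at the other hours, and inside cluster 23 at 77.3 to 120.6 CPM against 21.8 to 59.8 CPM. Inside cluster 0 the ranges overlapped, at 57.6 to 129 CPM and 68.4 to 113 CPM. They overlapped as well inside cluster 4 (59.47 to 108.1 against 42.16 to 92.46 CPM), cluster 7 (60.21 to 124.6 against 56.15 to 97.02 CPM) and cluster 13 (60.02 to 181.5 against 56.38 to 142.7 CPM), and they were apart inside cluster 24 (298.1 to 312.5 against 120.9 to 201.2 CPM). In T/NK-cell-like cells, where no test was made, Dusp5 was at 159 to 307 CPM at 4 h and at 76.9 to 156 CPM otherwise. In the other untested classes it was at 50.5 to 63.1 against 25.6 to 34.8 CPM in macrophage-like cells, and the hours overlapped in endothelial-like cells, at 34.7 to 113 against 23.6 to 52.3 CPM. The 76.9 and 34.8 CPM are those of TOE 4d 24h, on 23 UMIs of 29 cells and 12 UMIs of 25 cells. The share of all genes whose hours were apart was not counted in these untested classes.

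**Figure D2:**
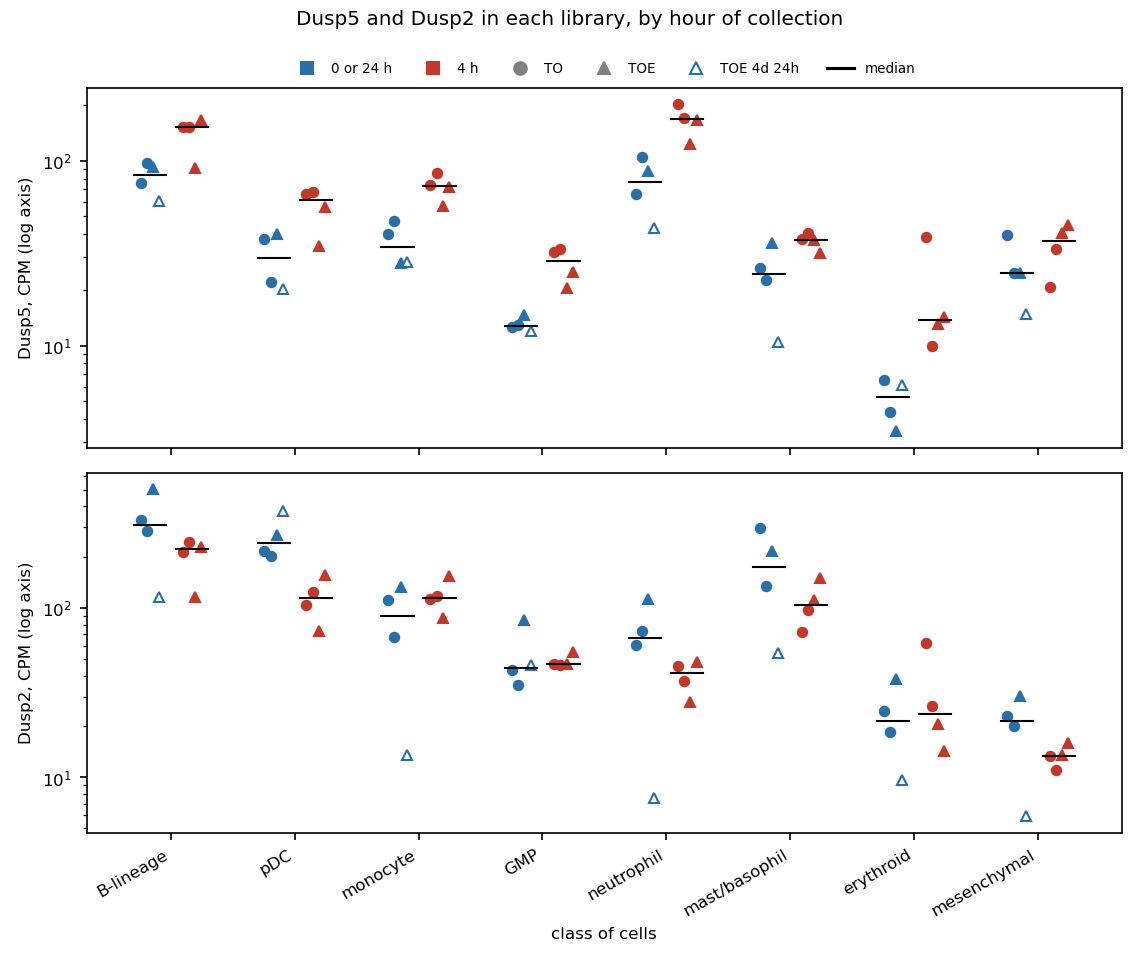
CPM of Dusp5 (upper panel) and Dusp2 (lower panel) in each library, for the 8 tested classes, on log axes. Red points are the 4 libraries collected at 4 h and blue points those collected at 0 or 24 h, circles are TO, triangles TOE, the open triangle is TOE 4d 24h, and black bars are medians of 4 libraries. Dusp5 lies higher in all 4 red points than in all blue points in the monocyte-like, neutrophil-like, erythroid-like and granulocyte-monocyte progenitor-like (GMP) classes, and Dusp2 lies lower in the plasmacytoid dendritic-cell-like (pDC) class.

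**Figure D3:**
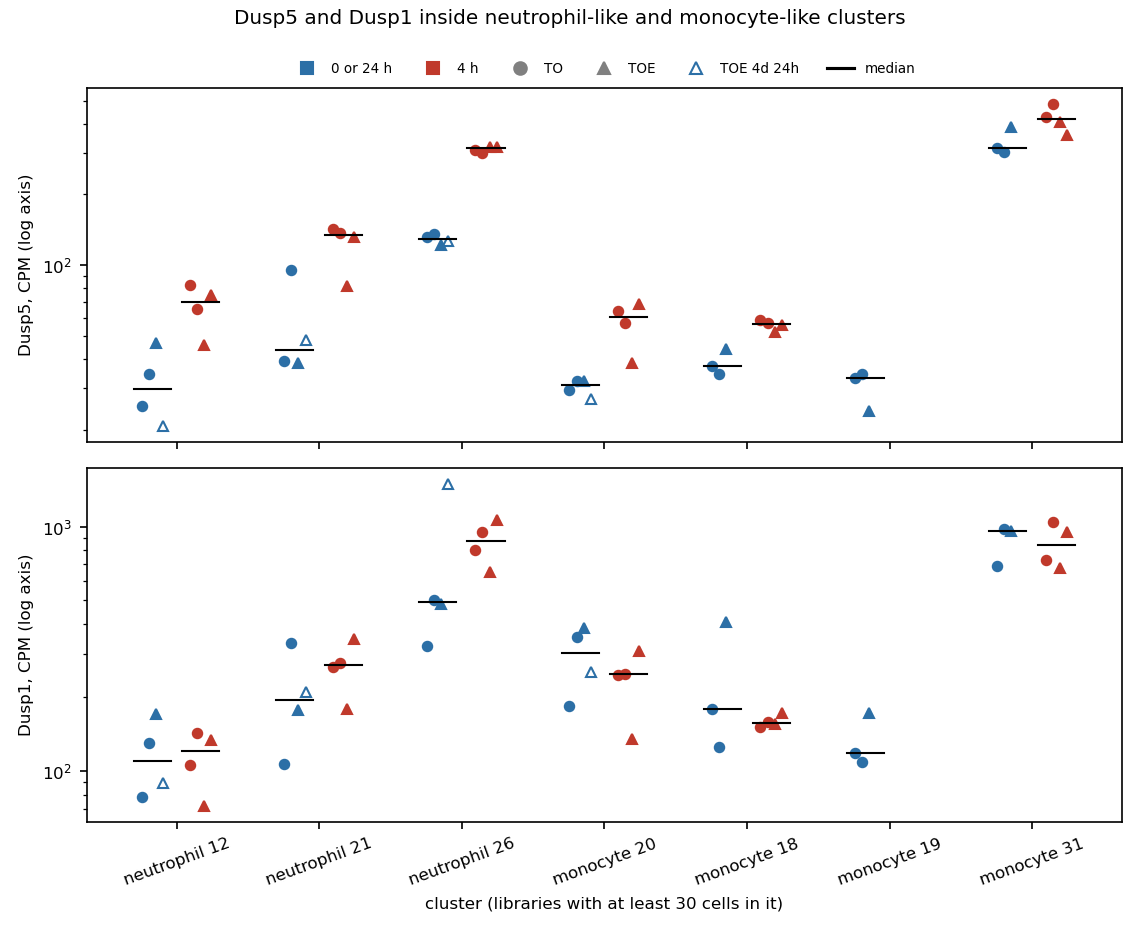
CPM of Dusp5 (upper panel) and Dusp1 (lower panel) inside single neutrophil-like and monocyte-like clusters, on log axes, 1 point per library with at least 30 cells in the cluster and the same symbols as in the plot by hour. In cluster 26 Dusp5 lies at 300.2 to 318.5 CPM in the 4 h libraries and at 121.8 to 135.7 CPM in the others, whereas Dusp1 overlaps there, and Dusp5 overlaps between the hours in clusters 12, 21 and 31.

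Dusp5 in erythroid-like cells had the largest log2 fold change of any member by hour, 1.75 (SE 0.38, edgeR adjusted p = 0.109), with 1 library far above the rest. TO 2d 4h stood at 38.5 CPM, the other 4 h libraries at 9.94 to 14.3 CPM and those of the other hours at 3.44 to 6.53 CPM. Leaving out any single library brought no call by edgeR (adjusted p = 0.0758 to 0.356). Cluster 9 held 74.5% of the erythroid-like cells of TO 2d 4h (1999 cells) and at most 10.2% of those of a library of another hour. In cluster 9 the 4 h libraries stood at 44.63 to 90.23 CPM of Dusp5, and no library of another hour had 30 cells in it. Inside the other erythroid-like clusters Dusp5 was lower and the hours overlapped, at 9.563 to 16.43 against 4.086 to 11.92 CPM in cluster 14 and 4.219 to 10.21 against 1.117 to 6.193 CPM in cluster 16. In this class the B-cell list (12 of 12 genes detected) summed to 624.4 to 2375 CPM at 4 h and 525 to 929 CPM otherwise, and the monocyte list (10 of 10) to 397.9 to 2380 against 348.9 to 833.4 CPM. Their part in the result was not tested. Mesenchymal-like cells, the stroma of the osteotomy, had the smallest log2 fold change of Dusp5, 0.20 (edgeR adjusted p = 0.796), with 20.8 to 45.1 CPM at 4 h and 14.8 to 39.6 CPM otherwise, and it was -0.10 without TOE 4d 24h. In mast-cell/basophil-like and plasmacytoid dendritic-cell-like cells the log2 fold changes were 0.51 and 0.87 (adjusted p = 0.360 and 0.111).

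Dusp2 in plasmacytoid dendritic-cell-like cells stood at 104 CPM in TO 2d 4h, 124 in TO 4d 4h, 73.0 in TOE 2d 4h and 157 in TOE 4d 4h. At the other hours it stood at 217 CPM in TO 2d 0h, 204 in TO 4d 24h, 270 in TOE 2d 24h and 377 in TOE 4d 24h. Every 4 h library was below every other one. The log2 fold change was -1.27 (SE 0.21, edgeR adjusted p = 0.019), and -1.22 without TOE 4d 24h (adjusted p = 0.0136). The call was lost without TO 2d 0h (adjusted p = 0.104), TO 2d 4h (0.052) or TO 4d 4h (0.080), at log2 fold changes of -1.25, -1.42 and -1.28. This class lay in 1 cluster in all libraries. Its plasma-cell list (8 of 8 genes detected) summed to 120 to 158 CPM at 4 h and 254 to 350 CPM at the other hours, its mesenchymal list (13 of 13) to 184 to 336 against 419 to 959 CPM, and its B-cell list (12 of 12) to 823 to 1159 against 829 to 1234 CPM. Their part in the result was not tested.

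Dusp2 had a negative log2 fold change in 6 of 8 classes and a positive one in monocyte-like (0.72, edgeR adjusted p = 0.477) and erythroid-like cells (0.23, adjusted p = 0.788). In B-lineage-like cells the 4 h libraries stood at 214, 245, 116 and 231 CPM and the others at 334, 285, 503 and 117 CPM, the last being TOE 4d 24h. That library alone lay in the 4 h range. Without it Dusp2 fell by 1.02 on the log2 scale in B-lineage-like cells (edgeR adjusted p = 0.029), by 1.27 in neutrophil-like cells (0.021) and by 1.22 in mast-cell/basophil-like cells (0.028). In the last class the haematopoietic stem and progenitor list (9 of 9 genes detected) was at 650.6 to 834.6 CPM at 4 h and 351.9 to 449.9 CPM otherwise. The mesenchymal list (12 of 13, Pdgfrb at 0) was at 273.0 to 381.8 against 520.6 to 1218 CPM there. Their part in the result was not tested. With all 8 libraries edgeR also called Dusp2 in mast-cell/basophil-like cells with no filter on low counts (-0.74, adjusted p = 0.0166) and in granulocyte-monocyte progenitor-like cells at a clustering resolution of 0.5 (-1.21, 0.0166). The latter was a mixed cluster of 3223 cells, led by Prtn3, Ctsg and Elane but also by Siglech and Flt3 of plasmacytoid dendritic cells, with Dusp2 at 131.93 CPM. It is therefore not a further class in which Dusp2 fell. In T/NK-cell-like cells, where no test was made, Dusp2 stood at 290 to 323 CPM at 4 h and at 468 to 1087 CPM at the other hours. The 468 CPM is that of TOE 4d 24h, with 29 cells, and the share of all genes whose hours were apart was not counted in this class. In the other untested classes the hours overlapped, at 199.5 to 245.8 against 191.6 to 399.4 CPM in macrophage-like and 58.6 to 120.7 against 31.45 to 193.9 CPM in endothelial-like cells.

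The remaining members had no call by hour in the edgeR fit with arm, day and hour. Of the alternatives with all 8 libraries, DESeq2 (adjusted p = 0.042) and edgeR with hour as the single term (0.040) called Dusp7 in B-lineage-like cells. Dusp10 was lower at 4 h in 6 of 8 classes, by a log2 fold change of -0.70 in B-lineage-like cells (edgeR adjusted p = 0.120) and -0.96 in mesenchymal-like cells (0.214). Dusp7 was higher at 4 h in 5 of 7 classes, with 0.95 in B-lineage-like cells (0.068), where its counts were 1.198 to 1.78 CPM at 4 h and 0.497 to 0.998 CPM otherwise. Dusp6 was higher in 6 of 8 classes, with 0.66 in neutrophil-like cells (0.110), at 33.6 to 42.8 CPM against 13.2 to 26.5 CPM. Dusp1 was higher in 4 and lower in 4 classes, with the lowest adjusted p at 0.292, and Dusp16 in 3 and 5. Dusp4 was tested in 5 classes, with 3 higher and 2 lower. Without TOE 4d 24h, 11 of 60 combinations were called, 9 of them lower at 4 h. The share of all genes called in that fit, averaged over the same combinations, was 12.7% either way and 6.69% lower at 4 h. Beside those of Dusp2 and Dusp5 already given, they were Dusp10 in B-lineage-like (-0.89), monocyte-like (-0.52) and plasmacytoid dendritic-cell-like cells (-0.85), Dusp6 in B-lineage-like cells (-0.54), Dusp1 in mast-cell/basophil-like cells (-1.04) and Dusp7 in monocyte-like cells (0.64).

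**Figure D4:**
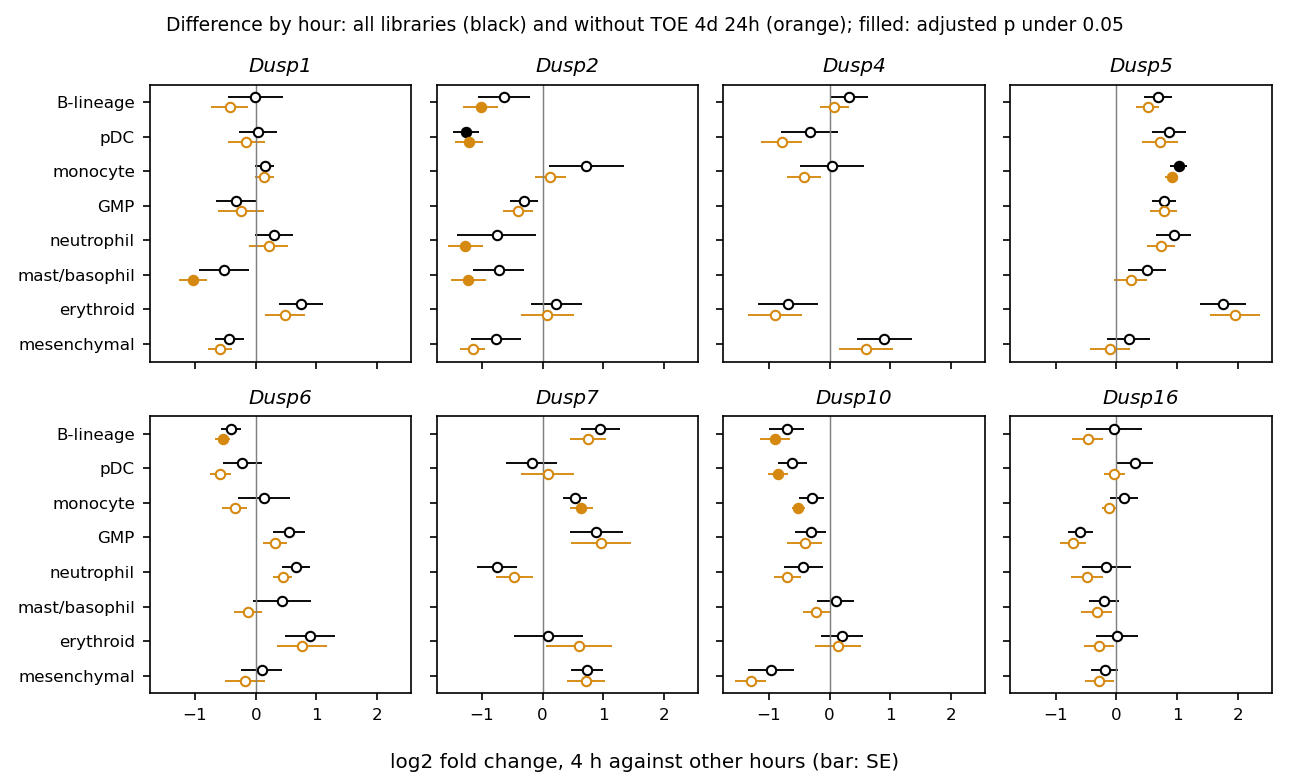
Log2 fold change at 4 h against the other hours from the edgeR fit, in 1 panel per member with the tested classes as lines, as points with bars for the SE, black for all 8 libraries and orange without TOE 4d 24h. Filled points passed an adjusted p of 0.05, and combinations with too few UMIs have no point. The black points of Dusp5 are positive in all 8 classes (0.20 to 1.75) and those of Dusp2 negative in 6 of 8. The filled black points are Dusp5 in monocyte-like and Dusp2 in plasmacytoid dendritic-cell-like (pDC) cells, and 11 orange points are filled.

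In counts of genes whose 4 h libraries all lay above all the others, the members numbered 1 of 8 in B-lineage-like cells (Dusp7), where 14.5% of genes with at least 20 UMIs over the 8 libraries did so. They numbered 1 in erythroid-like cells (Dusp5, background 6.41%), 2 in granulocyte-monocyte progenitor-like cells (Dusp5 and Dusp6, 18.3%), 0 in mast-cell/basophil-like (11.3%) and mesenchymal-like cells (11.7%), 1 in monocyte-like cells (Dusp5, 9.24%), 2 in neutrophil-like cells (Dusp5 and Dusp6, 15.2%) and 0 in plasmacytoid dendritic-cell-like cells (9.5%). In the opposite direction the single case was Dusp2 in plasmacytoid dendritic-cell-like cells (background 6.74%). No member lay wholly below in B-lineage-like (10.5%), erythroid-like (2.84%), granulocyte-monocyte progenitor-like (3.89%), mast-cell/basophil-like (4.54%), mesenchymal-like (3.65%), monocyte-like (10.4%) or neutrophil-like cells (5.13%). The untested classes have no such background. There Dusp5 lay above in T/NK-cell-like and macrophage-like cells, and Dusp16 in endothelial-like cells. Dusp2 and Dusp10 lay below in T/NK-cell-like cells. An exact two-sided permutation test of 4 against 4 libraries cannot go below p = 0.0286, and after adjustment over 64 combinations none passed. Classes share libraries, so a gene that moved in several of them was not seen independently in each.

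Other genes of the pathway, taken from lists by role, were called by hour at shares that for most lists lay near those of all genes. Of the Sprouty, Spred and related feedback inhibitors, which restrain ERK signalling upstream, 4 of 54 tested combinations rose and 0 fell, 3 of the 4 in B-lineage-like cells. That was 7.41%, beside 6.49% of all genes in the same classes, 3.14% up. Errfi1, on this list but neither a Sprouty nor a Spred, was at a log2 fold change of 1.21 in monocyte-like cells. Spred3 and Spred1 were at 1.10 and 0.89 in B-lineage-like cells. The list's median in B-lineage-like cells was 0.70, against -0.01 over all genes there, and it was above 0 in each of the 8 classes (0.14 to 0.70). Of the transcription factors that ERK induces, 7 of 119 rose and 2 fell (7.56%, beside 6.73% of all genes), among them Ier3 in monocyte-like cells (1.57), Myc in granulocyte-monocyte progenitor-like cells (1.37), Fosl2 in mast-cell/basophil-like cells (1.62) and Atf3 there (-2.05). Their list medians ran from -0.69 in mesenchymal-like to 0.41 in neutrophil-like cells.

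The kinases moved in both directions. Of the MAP kinases 1 of 58 combinations rose and 3 fell (6.9%, beside 6.84% of all genes), with Mapk14 (p38 alpha) at 0.77 and Mapk13 (p38 delta) at -1.15 in B-lineage-like cells. Of the kinases above them 5 of 55 rose and 3 fell (14.5%, beside 6.58%), with Map2k3, which activates p38, at 0.78 and Map2k7, which activates JNK, at -0.73 in B-lineage-like cells. Of other phosphatases, 4 of 78 rose and 5 fell (11.5%, beside 6.94%), including Ptpn7, a tyrosine phosphatase of MAP kinases, at 0.99 in neutrophil-like cells and the atypical phosphatases Dusp12 and Dusp23 at -0.93 and -0.78 in B-lineage-like cells. The list medians of the 8 classes ran from -0.20 to 0.12 for the MAP kinases, from -0.32 to 0.22 for the kinases above them and from -0.52 to 0.02 for the other phosphatases, beside -0.0239 to -0.00225 over all genes.

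Heat shock genes, which respond to warming and handling of tissue, rose in 10 of 64 combinations and fell in 2, or 18.8% of them, where 6.56% of all genes in the same classes were called. In neutrophil-like cells, where Dusp5 and Dusp6 did not overlap by hour, Hspa1b was at a log2 fold change of 2.76, Hsph1 at 1.77 and Hspa1a at 1.60. Of glucocorticoid-responsive genes 3 of 64 rose and 0 fell (4.69%, beside 6.56%), with Fkbp5 in B-lineage-like cells at 1.13 and Errfi1, which is on this list too, and of circadian clock genes 1 of 80 rose (1.25%, beside 6.75%), Dbp in monocyte-like cells at 0.58. Their list medians ran from -0.46 to 0.71, from -0.56 to 0.13 and from -0.04 to 0.12. The median share of mitochondrial UMIs was 1.03 to 1.69% in the 4 h libraries and 1.05 to 2.965% in the others. Of these others, TOE 4d 24h alone was at 1.05%, within the 4 h range, and the rest were at 2.196 to 2.965%, above it. By arm 0 combinations of any list were called by edgeR, and by day 1 was, Hspa1b in monocyte-like cells at 1.61 on day 4. The part of these genes and of tissue handling in the changes of Dusp5 and Dusp2 was not tested. All calls named in these lists had an edgeR adjusted p under 0.05.

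The second comparison was shock wave (TOE) against none (TO), over all 8 libraries with hour (4 h or not) and day in the fit. The study instead compared gene expression of mesenchymal cells in pairs of the same day and hour. Of the day 2 libraries not at 4 h, the TO one was collected at 0 h and the TOE one at 24 h. The arm therefore also carries that difference in collection time. No member was called in any class by edgeR, 4 of 60 combinations had an unadjusted p under 0.05, and DESeq2 also called 0, with 3 under 0.05. Over all genes edgeR called 0% in each of the 8 classes. The lowest p was that of Dusp5 in monocyte-like cells, where the log2 fold change was -0.53 (SE 0.14, adjusted p = 0.51). There TOE libraries stood at 56.6, 27.9, 71.6 and 28.4 CPM and TO libraries at 40.1, 74.2, 85.4 and 47.0 CPM, which overlap. Dusp7 in the same class had a log2 fold change of 0.55 (SE 0.19, adjusted p = 0.51), and Dusp16 in mesenchymal-like cells -0.60 (SE 0.23, adjusted p = 1.00). Log2 fold changes of Dusp5 and Dusp16 were negative in all 8 classes (-0.53 to -0.09 and -0.60 to -0.12) and those of Dusp7 positive in all 7 (0.05 to 0.93). Without TOE 4d 24h this was no longer so, and the counts went from 17 positive and 43 negative combinations to 35 and 25. Without TOE 2d 24h they were 13 and 47, and 20 of 60 combinations had an unadjusted p under 0.05 in place of 4, with no call (lowest edgeR adjusted p = 0.31). With the 3 pairs of the same day and hour as a block over 6 libraries, chosen after seeing the data, 0 members were called and 17 of 60 had an unadjusted p under 0.05 (13 positive, 47 negative, lowest edgeR adjusted p = 0.56). Over all genes, those with an unadjusted p under 0.05 numbered 176 to 1445 per class with all 8 libraries. They numbered 382 to 2089 without TOE 2d 24h and 340 to 1348 in the block fit. In B-lineage-like cells they were 601 of 18391 genes with all libraries, 2089 of 18299 without TOE 2d 24h and 1285 of 18134 in the block fit. In erythroid-like cells they were 176 of 13550 with all libraries and 515 of 13423 without TOE 2d 24h. Shares of all genes averaged over the 60 combinations were not made for an unadjusted p.

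The same fit gave day 4 against day 2. No member was called by edgeR or DESeq2, and 2 (edgeR) and 5 (DESeq2) of 60 combinations had an unadjusted p under 0.05. The share of all genes called was 0.0064% in monocyte-like cells and 0% in the other 7 classes. The 2 were Dusp6 and Dusp2 in erythroid-like cells, with log2 fold changes of -1.26 and -1.12 (edgeR adjusted p = 0.90 for both). A shock wave effect that differs between 4 h and the other hours was also tested, as an interaction, and 0 members were called by edgeR, 3 with an unadjusted p under 0.05. Over all genes 0.0111% were called in mast-cell/basophil-like, 0.0064% in monocyte-like and 0% in the other 6 classes. The lowest p was that of Dusp1 in granulocyte-monocyte progenitor-like cells (-1.51, SE 0.36, adjusted p = 0.083).

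Direct pairs of TOE and TO of the same day and hour, 1 library each, have no replicates, so their ratios of CPM carry an exact 95% interval for counting error only and no test of the treatment. A ratio of at least 2 either way on at least 20 UMIs over the pair was counted in 4 classes. On day 2 at 4 h, 1 of 8 members passed it in B-lineage-like cells (12.2% of all genes did), 0 of 7 in neutrophil-like (13.5%), 0 of 8 in monocyte-like (8.79%) and 2 of 8 in mesenchymal-like cells (9.41%). Dusp16 in B-lineage-like cells went from 350 CPM in TO to 165 CPM in TOE, a ratio of 0.4715 (0.460 to 0.483). Just short of the fold in that class were Dusp4 at 0.509 (0.445 to 0.583), Dusp2 at 0.543 (0.527 to 0.560) and Dusp10 at 0.5505 (0.537 to 0.564). The cells of this class lay in different clusters in the pair. Cluster 3, with Dusp16 at 479 to 593 CPM at 4 h, held 3233 of 7195 cells in TO and 2316 of 10750 in TOE. Cluster 7, with Dusp16 at 84.7 to 224 CPM at 4 h, held 297 and 2603. Their part in these ratios was not tested. In mesenchymal-like cells, Dusp6 went from 30.8 CPM (46 UMIs of 65 cells) to 69.2 CPM (87 UMIs of 61 cells), a ratio of 2.25 (1.56 to 3.29). Its level also varied within each arm. The other TO libraries ranged from 19.3 CPM (TO 4d 24h) to 59.1 CPM (TO 2d 0h). The other TOE libraries ranged from 20.7 CPM (TOE 4d 24h) to 75.4 CPM (TOE 2d 24h). The part of the make-up of mesenchymal-like cells in this ratio and in that of Dusp4 was not tested. Dusp4 there went from 3.35 to 15.1 CPM on 5 and 19 UMIs, a ratio of 4.52 (1.63 to 15.5), so that its size is poorly known.

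On day 4 at 4 h, 1 combination passed. None of 8 passed in B-lineage-like (4.27% of all genes) or monocyte-like cells (6.23%), 0 of 7 in neutrophil-like cells (4.88%), and 1 of 8 in mesenchymal-like cells (10.6%). The 1 was Dusp16, at 126 CPM in TO and 58.3 CPM in TOE, a ratio of 0.463 (0.403 to 0.531). Dusp6 in mesenchymal-like cells, which was higher in the TOE library of the day 2 pair, had a ratio of 1.02 (0.851 to 1.22) here. In monocyte-like cells Dusp6 was higher with shock waves in both 4 h pairs, at 1.84 (1.67 to 2.03) on day 2 and 1.545 (1.40 to 1.71) on day 4, short of the fold, and it was lower at day 4, 24 h. Dusp16 in B-lineage-like cells was at 0.956 (0.934 to 0.979).

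On day 4 at 24 h, 14 of the 30 combinations with enough UMIs passed, 13 of them lower in TOE 4d 24h, the library that stands apart. These were 3 of 8 members in B-lineage-like cells (27.7% of all genes), 5 of 7 in neutrophil-like cells (24.9%), 4 of 8 in monocyte-like cells (21.4%) and 2 of 7 in mesenchymal-like cells (18.5%). The shares of all genes that were lower by this fold were smaller, at 7.81% in B-lineage-like, 11.3% in neutrophil-like, 7.26% in monocyte-like and 3.63% in mesenchymal-like cells, where 3, 5, 3 and 2 members were lower. Dusp2 was lower in all 4 classes, from 285 to 117 CPM in B-lineage-like, 73.7 to 7.54 CPM in neutrophil-like, 68.0 to 13.6 CPM in monocyte-like and 20.2 to 5.90 CPM in mesenchymal-like cells. Its ratios were 0.410 (0.392 to 0.428), 0.102 (0.0837 to 0.124), 0.201 (0.168 to 0.239) and 0.292 (0.143 to 0.545). Dusp16 had ratios of 0.242 (0.230 to 0.254) in B-lineage-like and 0.289 (0.260 to 0.321) in neutrophil-like cells. Dusp6 in monocyte-like cells went from 35.3 to 11.1 CPM, a ratio of 0.314 (0.255 to 0.383). The single higher one was Dusp7 in monocyte-like cells, from 2.46 to 5.58 CPM, a ratio of 2.27 (1.51 to 3.44).

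Cells of these classes came from different clusters in the libraries of that pair, and 1 library on each side cannot tell the treatment from the library. Inside neutrophil-like cluster 26, Dusp2 was at 91.5 CPM in TO 4d 24h and at 15.9 CPM in TOE 4d 24h, and Dusp5 at 136 and 126 CPM. Inside monocyte-like cluster 20, Dusp2 was at 71.1 and 10.5 CPM, and Dusp5 at 32.2 and 27.1 CPM. Dusp2 was thus lower in TOE 4d 24h inside both of these clusters, and Dusp5 was near its level in the paired library. In plasmacytoid dendritic-cell-like cells, by contrast, TOE 4d 24h had the highest Dusp2 of all libraries, at 377 CPM. Of the neutrophil-like cells of TOE 4d 24h, cluster 26 held only 11.4%, beside 37.4% in cluster 12 and 51.2% in cluster 21. The part of the cluster make-up in the ratios of this pair was not tested.

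**Figure D5:**
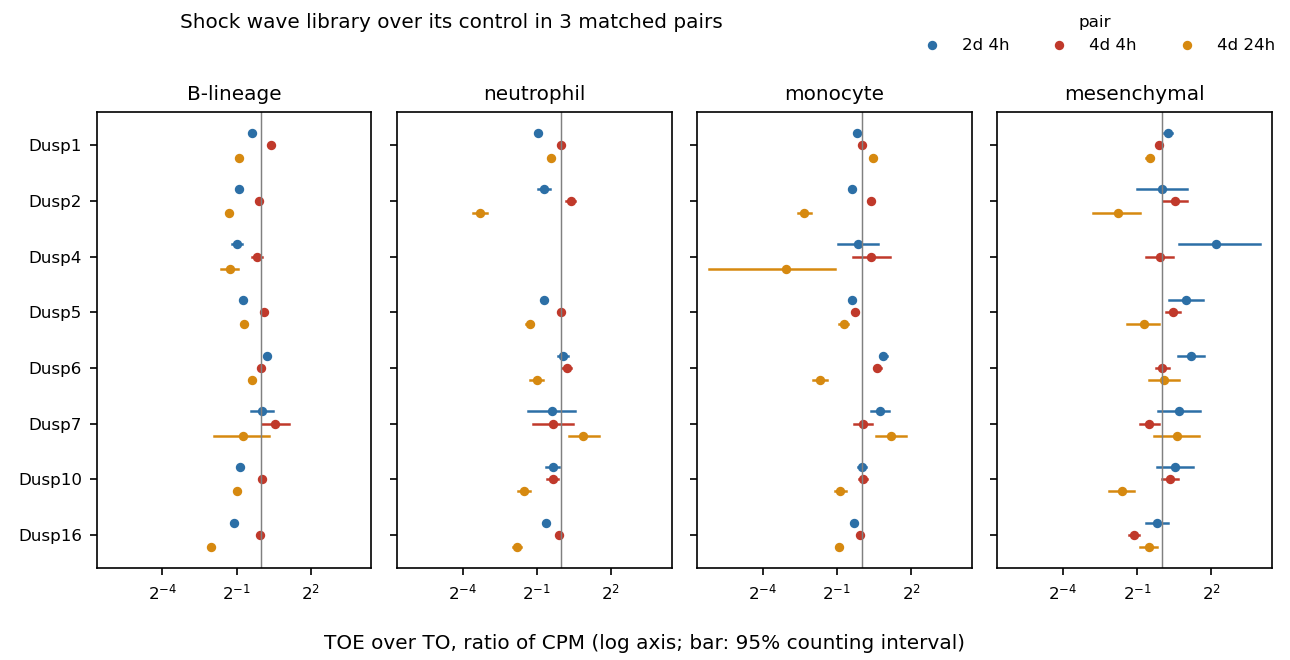
Ratio of CPM, TOE over TO, for each member in 4 classes and 3 matched pairs of libraries (day 2 at 4 h, day 4 at 4 h, day 4 at 24 h), on a log axis with bars for the exact 95% counting interval and a line at 1. Ratios of day 4 at 4 h with enough UMIs lie between 0.463 and 1.545, those of day 2 at 4 h below 1 for 6 of 8 members in B-lineage-like cells (0.4715 to 0.781), and those of day 4 at 24 h mostly below 1, with the lowest for Dusp2 in neutrophil-like cells at 0.102, and Dusp7 in monocyte-like cells above it at 2.27.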

How the data were processed

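Per the labels, 9 samples of osteotomy tissue were taken for single-cell RNA sequencing, and 8 were analysed here. The authors deposited UMI counts per gene and cell barcode as matrices with gene and barcode lists, and nothing else was normalized in them. The submitters' processing notes name Cell Ranger 9.0.0, Seurat, R 4.0.3 and the builds mRatBN7.2 and GRCh38, with no roles. Introns, ambient RNA and doublets may have been treated before deposit, which is not given in the sources used here.

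Barcodes with at least 200 genes, at most 20% mitochondrial UMIs and a doublet score of at most 0.25 (Scrublet in scanpy 1.11.5, expected share 8%) were kept. Counts were scaled per cell and log-transformed, and 2000 variable genes, 30 principal components and 15 neighbours gave Leiden clusters at resolution 1. Clusters were named from marker lists. After the clusters were seen, the B-cell and plasma-cell lists were merged into a B-lineage-like class, and low-UMI clusters 1 and 28 were left unnamed. UMIs were summed per library and class, and classes with at least 30 cells in all 8 libraries were fitted with edgeR 4.0.16 (quasi-likelihood, TMM, filterByExpr) in R 4.3.3 with arm, day and hour as terms. Adjusted p-values are Benjamini-Hochberg over all genes of a class. Intervals cover counting error only. Libraries held 95954800 to 144146202 UMIs, and scripts were tested on simulated data.

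The text names all 8 members, the 3 genes most alike with each, up to 5 leading genes of a cluster (by fold, in at least 20% of its cells), and, of each pathway list and comparison, up to 4 called genes with the largest change. The members and the lists were chosen with earlier results of these data known. Alternatives were another normalization, DESeq2 1.42.0, no filter on low counts, single factors, other cell filters and resolutions, an exact permutation test and leaving out each library, and, chosen after seeing the data, a fit of TOE against TO with the matched pairs as a block.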

Additional observations from a re-analysis of the deposited data

Results flagged for a closer look

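Among 126 groups of 4 libraries (member, class and hour), 9 held a library far from the other 3, while chance alone flags about 1 in 20 such groups. Dusp1 in neutrophil-like cells was at 241.5 CPM in TOE 2d 4h, against 467.7 to 493.7 CPM in the other 4 h libraries. Cluster 26, with Dusp1 at 653.9 to 1068 CPM at 4 h, held 377 of the 1012 neutrophil-like cells of TOE 2d 4h. It held 1106 of 1633 in TO 2d 4h, 1019 of 1814 in TO 4d 4h and 557 of 1150 in TOE 4d 4h, and its part was not tested. Dusp2 in granulocyte-monocyte progenitor-like cells was at 54.95 CPM in TOE 4d 4h, against 46.36 to 46.91 CPM, and Dusp4 in that class was at 0.34 CPM (3 UMIs) in TO 4d 4h, against 0.707 to 0.733 CPM (7 to 10 UMIs), with overlapping counting intervals. Dusp4 in monocyte-like cells was at 0.189 CPM (2 UMIs) in TOE 4d 24h, against 1.51 to 1.56 CPM (28 to 43 UMIs) at the other hours besides 4 h. Dusp5 in erythroid-like cells was at 38.5 CPM in TO 2d 4h, against 9.94 to 14.3 CPM at 4 h. Dusp6 in mast-cell/basophil-like cells was at 42.2 CPM in TO 2d 4h, against 67.7 to 70.5 CPM. Dusp16 was flagged in 3 classes. In B-lineage-like cells it was at 165 CPM in TOE 2d 4h, against 319 to 350 CPM at 4 h. In erythroid-like cells it was at 41.6 CPM in TOE 4d 24h, against 103 to 115 CPM, and in mesenchymal-like cells at 126 CPM in TO 4d 4h, against 58.3 to 67.6 CPM.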

How the results depend on the processing

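The number of members called by hour, 2 of 60, was 7 with no filter on low counts, 8 with DESeq2, 4 with hour as the single factor, 1 with a doublet score of 0.15 and 0 by the exact permutation test, and it ran from 1 to 11 over the fits that leave out 1 library (11 without TOE 4d 24h, 5 without TOE 2d 24h, 4 without TOE 2d 4h, and 1 without TO 2d 0h, TO 2d 4h or TO 4d 4h). Dusp5 in monocyte-like cells kept its call in all edgeR and DESeq2 fits, from 0.91 to 1.09 over left-out libraries (edgeR adjusted p = 0.0023 to 0.047). By the exact permutation test it was at 1.00 and Dusp2 in plasmacytoid dendritic-cell-like cells at -1.22, both with an adjusted p of 0.229, since 4 against 4 libraries cannot go below p = 0.0286. Dusp2 in plasmacytoid dendritic-cell-like cells was at -1.12 (adjusted p = 0.052) with a doublet score of 0.15, at -1.47 to -1.03 over left-out libraries (adjusted p = 0.0136 to 0.104), and had no value at resolution 0.5, where no cluster had this name. Siglech and Flt3 were there among the leading genes of the granulocyte-monocyte progenitor-like cluster. Over left-out libraries Dusp5 in mesenchymal-like cells ran from -0.10 (without TOE 4d 24h) to 0.57, Dusp2 in erythroid-like cells from -0.040 (without TO 2d 0h) to 0.83, with -0.069 at resolution 2, and Dusp2 in neutrophil-like cells from -1.27 (without TOE 4d 24h, called) to 0.17 (without TOE 2d 24h), so these changed sign. The causes were not tested. The share of all genes called by hour moved with the setting too. Averaged over the 60 combinations, this share was 6.6% in the reported fit and 12.7% without TOE 4d 24h. It was not averaged for the other settings, so their counts of members have no such background. In B-lineage-like cells it was 19.3% in the reported fit, 12% with no filter, 25.5% with DESeq2 and 25.2% with hour as the single factor. In erythroid-like cells the reported fit, no filter and DESeq2 gave 0.177%, 1.08% and 5.83%. Over the alternatives, the genes called by hour numbered 960 to 6062 in B-lineage-like (3546 in the reported fit), 0 to 729 in erythroid-like (24), 131 to 1152 in granulocyte-monocyte progenitor-like (614), 25 to 1031 in mast-cell/basophil-like (494), 0 to 849 in mesenchymal-like (16), 211 to 3549 in monocyte-like (1733), 72 to 2109 in neutrophil-like (1035) and 53 to 1867 in plasmacytoid dendritic-cell-like cells (505). Genes called by arm over the 8 classes were 0 in the reported fit, 84 with DESeq2 and 80 with no filter, and by day 1, 61 and 120, with no member among them. Leaving out cluster 0 from the B-lineage-like class or naming the low-UMI clusters, both chosen after seeing the data, called 0 of 8 members in those classes by edgeR, as before. Each group holds 1 library, so replicate numbers pair nothing. In a paired fit of TOE against TO, with the matched day and hour as the block, 0 members were called, as without it. In simulated counts 68 to 91% of genes changed by a log2 fold change of 2 and 8 to 51% of those changed by 1 were recovered, so smaller differences could be missed.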

Other observations

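An unnamed cluster had the highest level of Dusp16 among all clusters, over libraries with at least 30 cells in them. Cluster 25, led by Il23a, a subunit of the cytokine IL-23, had 387 cells, of which 311 came from TO 2d 0h. In that library Dusp16 stood at 622 CPM in the cluster, against at most 592.7 CPM in a named cluster, B-lineage-like cluster 3, while Dusp5 stood at 215 CPM, Dusp2 at 222 CPM, Dusp1 at 293.8 CPM, Dusp10 at 40.9 CPM and Dusp4 at 2.555 CPM, each within or below the range of named classes. The other libraries had fewer than 30 cells in it, so the cluster is a feature of 1 library here, and it was given no cell type.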
